A study of Homo sapiens with 12 samples.

Results

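The RNAs described here are 6 structured noncoding RNAs of cellular machines, most of them made by RNA polymerase III: the signal recognition particle RNAs RN7SL1 and RN7SL2, the 7SK RNA RN7SK, the RNase MRP RNA RMRP, the RNase P RNA RPPH1 and the telomerase RNA TERC. They were chosen by symbol from the deposited count table, where they fill 7 of 57500 gene rows, because RMRP has 2 rows under different Ensembl identifiers. Only 3 of the 6 symbols, RN7SL2, TERC and RMRP, had a count in any of the 12 libraries. RN7SL2 held 2429963 of the 2430656 counts of the whole set, and it was the 1 abundant member in these files.

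RNA polymerase III makes short, structured RNAs that do not carry a poly(A) tail and do not code for protein. The 7SL RNA is the scaffold of the signal recognition particle, which halts ribosomes on messages for secreted and membrane proteins and brings them to the endoplasmic reticulum. The 7SK RNA holds the kinase P-TEFb (CDK9 with a cyclin T) inactive on HEXIM proteins and so limits elongation by RNA polymerase II. RPPH1 and RMRP are the catalytic RNAs of related particles that trim transfer RNA and ribosomal RNA precursors, and TERC is the template on which telomerase copies telomere repeats; TERC is made by RNA polymerase II in human cells.

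The study sequenced total RNA after depletion of ribosomal RNA in 12 libraries, 3 biological replicates in each of 4 groups. SW480 is a colorectal line from a primary tumour and SW620 one from a metastasis of the same patient, both untreated and grown in DMEM. The ovarian cancer line PEO4 was kept in RPMI 1640 medium and received either no cytokine or recombinant human TGF-β (10 ng/mL, 6 days). All media held fetal bovine serum, penicillin and streptomycin, and no genetic change is given for any group. Each group is a single established line, so a difference between lines is one between these lines only, and tissue, line and medium differ together between PEO4 and the SW lines. Library totals ran from 14531420 to 22028956 counts assigned to genes, and a row at 0 allows a level of up to 0.136 to 0.206 CPM (the count scaled by the library total), taking 3 counts as the limit. CDX2, which marks intestinal cells, had mean levels of 20.3 CPM (SW480) and 20.4 CPM (SW620) and at most 3 counts in a PEO4 library. PAX8, a marker of Müllerian epithelium, averaged 509 CPM in PEO4 control cells, with 48.8 CPM for SW480 and 52.9 CPM for SW620. Of the marker lists, 5 of 5 colorectal markers tested were lower in PEO4 control cells than in the SW lines, and 5 of 6 ovarian markers were higher. The ovarian marker SOX17 went the other way (1.46 CPM in PEO4 control cells), and the intestinal factor CDX1 was at or near 0 in all groups. SW620 replicate 3 held counts of genes otherwise seen in PEO4, at 1.30% of the PEO4 level over 43 genes (322 counts), against 0.290% to 0.528% over 4 or 5 genes in the other SW libraries.

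Where the members lie in the annotation went together with whether they had counts. The RN7SL2 row (ENSG00000274012, GRCh38 chr14:49862550-49862849, minus strand, 300 bases) lies in an intron of AL627171.2, shares no exonic base with another annotated gene, and carried almost all counts of the set. RN7SL1 (ENSG00000276168, chr14:49586580-49586878, plus strand, 299 bases) lies wholly inside the exon of AL139099.4, and in an intron of RPS29 on the other strand. It was at 0 in all 12 libraries, while AL139099.4 had 148 counts. RN7SK (ENSG00000283293, chr6:52995621-52995948, plus strand, 328 bases) lies wholly inside RF00100 (ENSG00000202198), which reaches 1 base further on one side and 2 bases on the other. RN7SK was at 0 in all 12 libraries and RF00100 had 232 counts. RPPH1 (ENSG00000277209, chr14:20343075-20343407, minus strand, 333 bases) was also at 0 throughout and lies inside the longer AL355075.4 (638 bases, 16809 counts), so the counts of AL355075.4 can come from bases outside RPPH1.

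RMRP and TERC show the same arrangement from the other side. Of the 2 RMRP rows, ENSG00000269900 (chr9:35657751-35658018, minus strand, 268 bases) had 125 counts. The other, ENSG00000277027 (264 bases), lies wholly inside it and was at 0 in all 12 libraries, so only 4 bases of the RMRP locus belong to the first row alone. TERC (ENSG00000270141, chr3:169764520-169765060, minus strand, 541 bases) had 568 counts. RF00024, an entry of 438 bases, covers 81.0% of TERC and was at 0 in all 12 libraries. Levels of TERC and RMRP are therefore those of rows whose locus is shared with another row, and are uncertain as levels of the RNA.

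**Figure D1:**
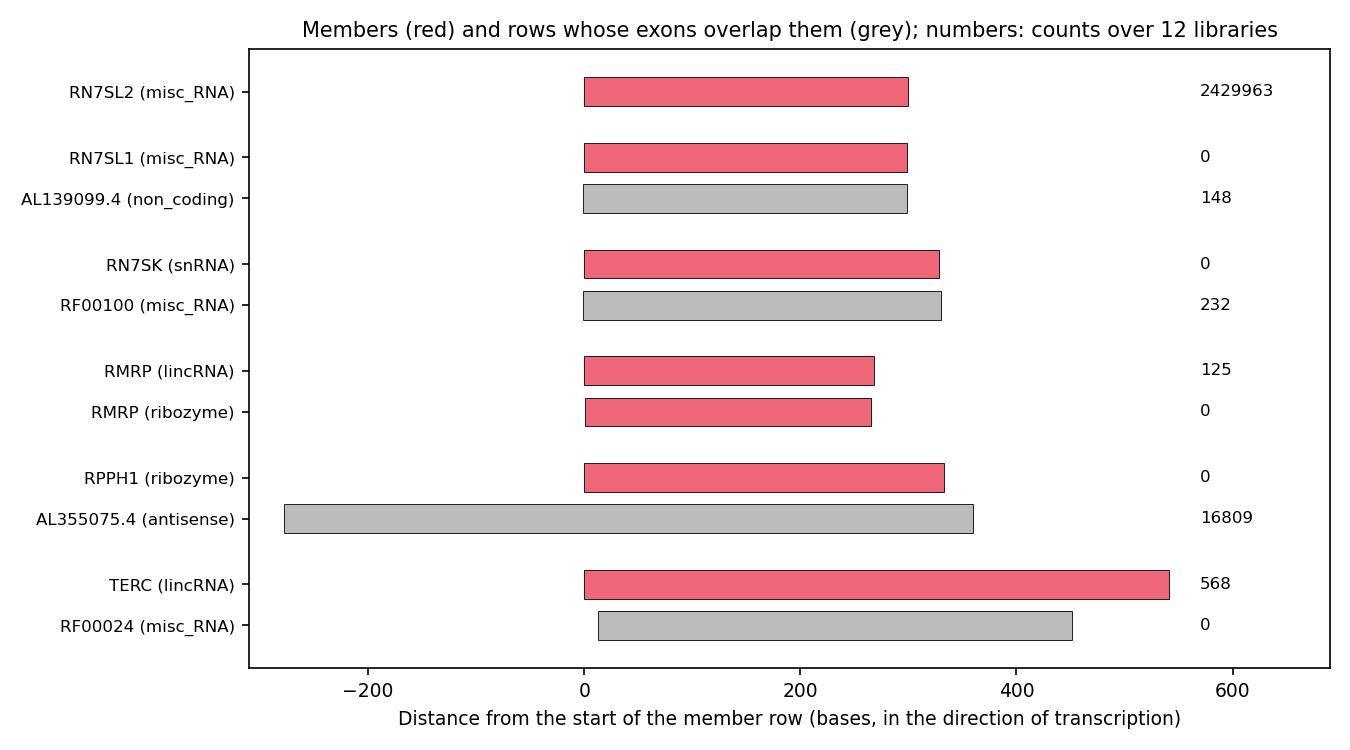
Position of each member row (red) and of the rows whose exons overlap it (grey), in bases from the start of the first red row of each locus, in the direction of transcription; the number beside each bar is the row's count over 12 libraries. RN7SL2, with no overlapping row, has 2429963 counts, and RN7SL1, RN7SK, RPPH1 and the inner RMRP row, each wholly inside another bar, have 0.

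The same was seen across the count table. Of the 772 genes whose every exonic base lies inside exons of other genes on the same strand, 598 (77.5%) were at 0 in all 12 libraries. Among the 51917 genes with no such base, 13116 (25.3%) were at 0. Among genes with 250 to 600 exonic bases, the length of the members, 148 of 182 (81.3%) wholly nested genes and 4764 of 12629 (37.7%) genes without overlap were at 0. Of the 737 genes covered in full only when both strands are counted, 703 (95.4%) were at 0. Whether the counting assigned reads that fall on 2 genes to neither was not tested, and strand use in counting is not given in the sources used here. No level of RN7SL1, RN7SK or RPPH1 in the cells is drawn from their rows.

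The 7SL RNAs are also near-identical in sequence, which sets what a read can tell apart. Their GENCODE 29 transcripts (GRCh38) were aligned with each other and with that of RN7SL3, another 7SL gene on chromosome 14 that is no member. RN7SL1 and RN7SL2 were 98.3% identical. They differ by 4 substitutions and 1 extra base in RN7SL2, and share an unbroken run of 205 bases. RN7SL2 and RN7SL3 were 96.0% identical with 11 substitutions, and their longest shared run was 123 bases.

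In stretches of 100 bases, 165 of 201 in RN7SL2 (82.1%) and 149 of 200 in RN7SL1 (74.5%) also occur in annotated RNAs of other loci, whereas 24 of 200 in RN7SL3 do. RN7SK shared 119 of 229 such stretches (52.0%) with 4 genes of other loci. RMRP, RPPH1 and TERC shared 0 stretches of 50 to 150 bases with annotated RNAs of other loci. Among annotated RNAs, only the overlapping rows of their own locus shared such exact stretches with them. Copies outside the annotation and copies that differ by some bases were not searched. The read length and the treatment of reads that map to several places are not given in the sources used here. The part of RN7SL1 in the count of the RN7SL2 row cannot be told apart.

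**Figure D2:**
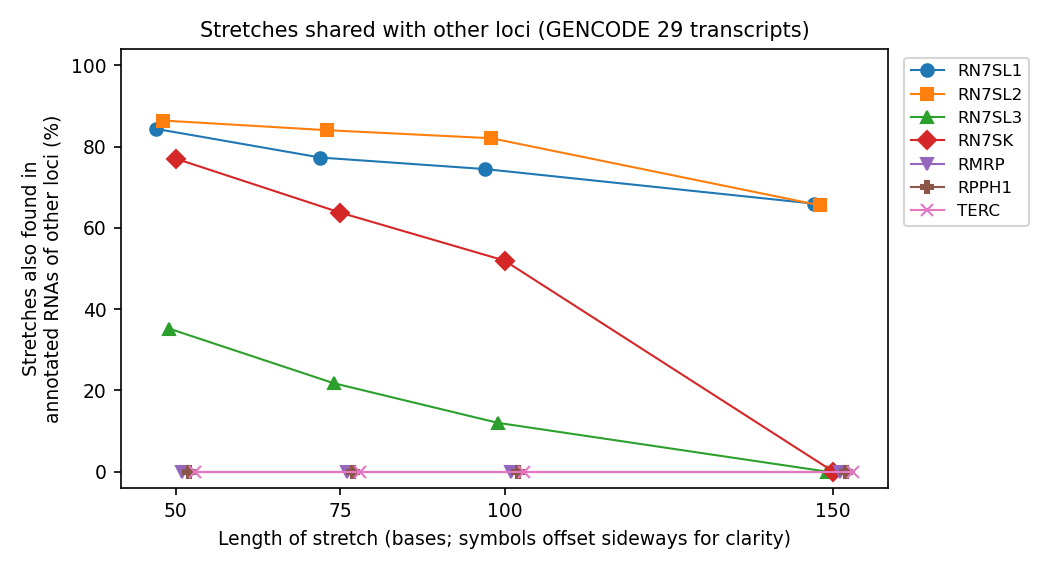
Percent of the stretches of each RNA (y axis) of 50, 75, 100 or 150 bases (x axis) that occur in annotated RNAs of other loci; each symbol is 1 RNA. RN7SL1 and RN7SL2 stay above 65% at all 4 lengths, RN7SL3 falls from 35.2% to 0%, and RMRP, RPPH1 and TERC are at 0% throughout.

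By counts over the 12 libraries RN7SL2 ranked 3 among all genes. In SW480 it held 0.586%, 0.611% and 0.603% of library counts in replicates 1 to 3 (mean 0.600% ± 0.0126, SD, n = 3). In SW620 it held 1.15%, 0.993% and 1.09% (1.08% ± 0.0769, SD, n = 3). The SW480 libraries lay close together and below every other library. In PEO4 control cells it held 1.43%, 1.22% and 1.15% (1.26% ± 0.147, SD, n = 3). With TGF-β it held 1.38%, 1.34% and 0.980% (1.23% ± 0.219, SD, n = 3). TGF-β replicate 3 was the lowest of the PEO4 libraries and lay below the 3 SW620 libraries. A share moves with the other RNAs of a library as well. RN7SL2 ranked 10, 12 and 10 among all genes in the SW480 libraries and 3 or 4 in the PEO4 libraries. Counting error was small beside this spread, with exact (Clopper-Pearson) 95% intervals no wider than ± 0.00519 percentage points in a library. Such intervals cover counting error only.

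Per length, RN7SL2 stood far above the other members with counts. It reached 19995 CPM per kilobase in SW480, 35866 in SW620, 42157 in PEO4 control cells and 41078 with TGF-β, as group means. TERC ran from 1.78 CPM per kilobase in PEO4 control cells to 8.92 in SW620. RMRP ran from 0.975 CPM per kilobase in SW620 to 2.83 in PEO4 control cells. By group means per kilobase TERC was above RMRP in SW480 and SW620 and below it in both PEO4 groups. In TGF-β replicate 3 TERC was the higher, at 2.66 against 2.43 CPM per kilobase. The length used is all exonic bases of a row, of which 81.0% in TERC and 98.5% in RMRP are shared with another row. How reads on shared bases were counted is not given, so the order of TERC and RMRP per length is uncertain.

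TERC had 69, 45 and 62 counts in the SW480 libraries, or 3.74, 3.06 and 3.24 CPM (mean 3.34 ± 0.351, SD, n = 3). In SW620 it had 93, 58 and 115 counts, or 5.26, 3.99 and 5.22 CPM (4.82 ± 0.722, SD, n = 3). The 3 SW620 values were above the 3 SW480 values, though SW620 replicate 2 came near them. In PEO4 control cells it had 19, 17 and 21 counts, or 0.946, 0.921 and 1.03 CPM (0.965 ± 0.0550, SD, n = 3). With TGF-β it had 18, 20 and 31 counts, or 0.877, 0.925 and 1.44 CPM (1.08 ± 0.312, SD, n = 3). All 6 PEO4 libraries were below all 6 SW libraries, and the PEO4 groups overlapped. The exact 95% interval was 2.23 to 4.09 CPM at 45 counts (SW480 replicate 2) and 0.537 to 1.48 CPM at 17 counts (PEO4 control replicate 2).

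RMRP (ENSG00000269900) was close to the limit of these libraries. It had 8, 7 and 7 counts in SW480 (0.425 CPM ± 0.0555, SD, n = 3) and 5, 2 and 8 in SW620 (0.261 CPM ± 0.114, SD, n = 3). It had 21, 11 and 13 counts in PEO4 control cells (0.759 CPM ± 0.249, SD, n = 3) and 10, 19 and 14 with TGF-β (0.672 CPM ± 0.197, SD, n = 3). The PEO4 groups overlapped each other and lay above the SW libraries by a narrow gap. The lowest PEO4 library, TGF-β replicate 1, was at 0.487 CPM and the highest SW library, SW480 replicate 2, at 0.476 CPM. At 2 counts, in SW620 replicate 2, the exact 95% interval ran from 0.0167 to 0.497 CPM. That interval takes in the level of all SW480 libraries and of TGF-β replicate 1.

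**Figure D3:**
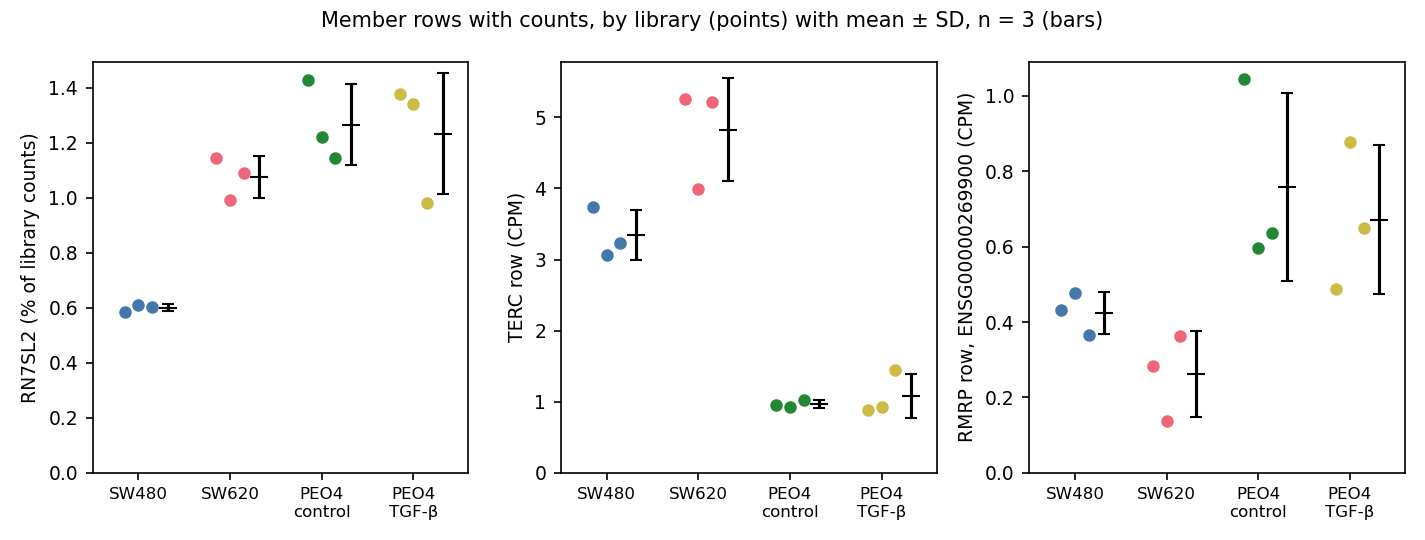
Level of RN7SL2 (percent of library counts), TERC and RMRP (CPM) on linear axes from 0; points are libraries and bars are group means ± SD (n = 3). SW480 is lowest for RN7SL2 at 0.600%, and the PEO4 groups are lowest for TERC at 0.965 and 1.08 CPM.

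SW620 was compared with SW480, the metastatic with the primary line. RN7SL2 was higher in SW620, and TERC did not pass the test. In edgeR's quasi-likelihood test with Benjamini-Hochberg adjustment over 20941 genes, RN7SL2 differed by a log2 fold change of 0.81 ± 0.26 (SE), a 1.75-fold difference (adjusted p = 0.0400). TERC differed by 0.50 ± 0.31 on the log2 scale (SE, edgeR adjusted p = 0.261), with no overlap between the lines. RMRP was too low to pass the filter on low counts, and its libraries barely failed to overlap, with 0.363 CPM as the highest SW620 and 0.366 CPM as the lowest SW480 value. The count of 1 called member of 2 tested stands beside 30.5% of all tested genes called, and the library values of 46% of all tested genes did not overlap between the lines. In the authors' deposited table RN7SL2 has a log2 fold change of 0.81 with an adjusted p of 0.000144, and TERC one of 0.50 with an adjusted p of 0.285.

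The RN7SL2 difference between the SW lines had the same direction in 16 of 16 alternative fits, with log2 fold changes from 0.68 to 0.99, but it was called in 10 of them. The edgeR call was lost without any 1 of SW480 replicates 1, 2 or 3 or SW620 replicates 1 or 3 (adjusted p 0.0852 to 0.149) and kept without SW620 replicate 2 (0.00982). Without SW620 replicate 3, the library with the PEO4-like counts, the log2 fold change was 0.68 (edgeR adjusted p = 0.0852); those counts would amount to 1.49% of its RN7SL2 and 0.255% of its TERC counts. Without the filter on low counts the call was lost as well (edgeR adjusted p = 0.110), and DESeq2 on the same filtered counts gave 0.000195. Markers of other cell types moved with the line. The summed level of 4 endothelial and fibroblast markers was 7.92 to 15.1 CPM in SW620 against 0.325 to 0.816 CPM in SW480, led by LUM and PECAM1. That of 4 leukocyte markers was 1.24 to 13.4 CPM against 1.10 to 1.84 CPM, and the endothelial marker CDH5 was at or near 0 in both lines. The part of either list in the result was not tested. In bulk RNA, fewer cells of a type and less RNA per cell cannot be told apart.

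TGF-β was compared with control medium in PEO4. None of the 3 members tested was called by edgeR, and their libraries overlapped. RN7SL2 differed by -0.02 ± 0.17 on the log2 scale (SE, edgeR adjusted p = 0.971). TERC differed by 0.17 ± 0.33 (SE, edgeR adjusted p = 0.841), and RMRP by -0.16 ± 0.42 (SE, edgeR adjusted p = 0.888). Unadjusted, their p-values were 0.918, 0.615 and 0.710 in the same edgeR fit over all genes, limma-voom called 0 of 3, and DESeq2 called neither RN7SL2 nor TERC and gave no adjusted p for RMRP. Of 19064 genes tested, 2.26% were called and 20.7% had no overlap between the groups, so a count of 0 among 3 is near the background. The summed leukocyte markers were at 5.08 to 5.88 CPM in control and 3.70 to 5.31 CPM in TGF-β-treated libraries, and the endothelial and fibroblast markers at 1.41 to 2.49 and 1.44 to 1.90 CPM. The summed level of the 6 ovarian markers was 5043 to 8166 CPM in control and 2593 to 4222 CPM in TGF-β-treated libraries, without overlap. Of these 6 markers WT1, EMX2 and MSLN were called lower by edgeR (adjusted p = 0.0274, 0.0235 and 0.00375), and 3 were not called. Most of the sum was MUC16, with means of 5188 CPM in control and 2137 CPM with TGF-β, which was not called. The means of PAX8 (509 and 513 CPM) and SOX17 (1.46 and 1.61 CPM) were not lower with TGF-β. In the authors' deposited table RN7SL2 has a log2 fold change of -0.02 (adjusted p 0.977) and TERC one of 0.17 (adjusted p 0.924).

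PEO4 control cells were then set against the mean of the SW lines, which places the levels of the untreated lines. RN7SL2 and RMRP were higher in PEO4 and TERC was lower. In edgeR, RN7SL2 differed by a log2 fold change of 0.93 ± 0.19 (SE, adjusted p = 0.00102). TERC differed by -1.79 ± 0.30 (SE, edgeR adjusted p = 0.000236), the member with the widest gap. RMRP differed by 1.43 ± 0.46 (SE, edgeR adjusted p = 0.0184), from 0.343 CPM over 6 SW libraries to 0.759 CPM over 3 PEO4 libraries. All 3 tested members were called and did not overlap, beside 58% of 22936 genes called and 45.6% without overlap, so that most genes differed in this comparison. With library totals as the only scaling, 5176 genes were higher and 8630 lower, against 6626 and 6678 with TMM factors. The median log2 fold change of all genes was then -0.36 instead of -0.08, and that of RN7SL2 0.65.

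RN7SL2 in PEO4 passed the test against SW480 alone and did not against SW620 alone. In the same fit, chosen after seeing the data, PEO4 control cells were above SW480 by 1.33 ± 0.23 on the log2 scale (SE, edgeR adjusted p = 0.000350, with 53.6% of all genes called). Against SW620 alone the log2 fold change was 0.54 ± 0.22 (SE, edgeR adjusted p = 0.0579, with 55.2% of all genes called). By library totals RN7SL2 averaged 1.08% in SW620 and 1.26% in PEO4 control cells, and this contrast was not fitted without TMM factors. The highest SW620 library stood at 1.1450% and the lowest PEO4 control library at 1.1452%. TERC was lower in PEO4 against SW480 (-1.55 ± 0.32, SE, edgeR adjusted p = 0.00154) and against SW620 (-2.02 ± 0.32, SE, edgeR adjusted p = 0.000191). RMRP was higher in PEO4 against SW620 (1.76 ± 0.57, SE, edgeR adjusted p = 0.0192), whereas against SW480 it differed by 1.09 ± 0.54 (SE, edgeR adjusted p = 0.110). The RMRP call against both SW lines was lost without PEO4 control replicate 1 (log2 fold change 1.09) and without SW480 replicate 3 (1.34).

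**Figure D4:**
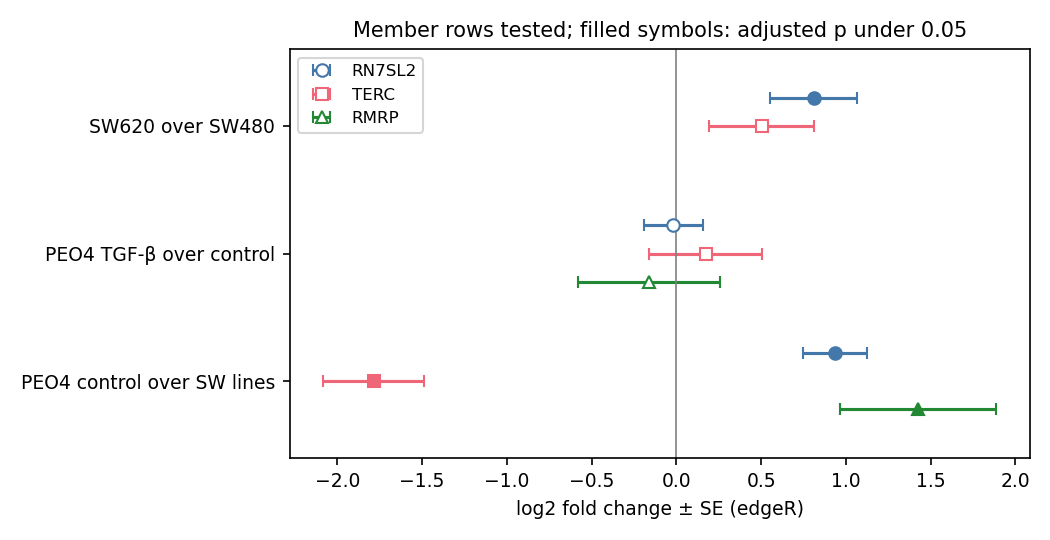
Log2 fold change ± SE (x axis) of RN7SL2, TERC and RMRP in the 3 comparisons (y axis), from edgeR; filled symbols passed an adjusted p of 0.05, and RMRP was not tested between the SW lines. RN7SL2 lies at 0.81, -0.02 and 0.93, and TERC at 0.50, 0.17 and -1.79.

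Of the rows outside the set whose exons overlap a member, none was called by edgeR in the comparisons where it could be tested. RF00100, which holds RN7SK, had 2 to 42 counts in a library and differed by -0.76 on the log2 scale between SW620 and SW480 (edgeR adjusted p = 0.583). In TGF-β-treated PEO4 cells it differed by 0.38 (edgeR adjusted p = 0.621), and in PEO4 against the SW lines by 0.46 (edgeR adjusted p = 0.587). Replicate 3 was the highest library of both SW lines, with 42 counts against 7 and 9 in SW480 and 28 against 7 and 2 in SW620. AL355075.4, which holds RPPH1, averaged 60.3 CPM (SW480), 87.1 (SW620), 71.9 (PEO4 control) and 72.3 (TGF-β), with overlap in each comparison. Its log2 fold changes were 0.51, 0.03 and 0.25 (edgeR adjusted p = 0.165, 0.956 and 0.304).

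Copies of the members are many and hold few counts. The table has 680 rows of the RN7SL family, of which 418 had a count, and RN7SL2 held 96.8% of their counts, from 94.9% to 97.7% by library. The most counted copies were RN7SL3 with 63604 counts, RN7SL4P with 1791 and RN7SL648P with 574. RN7SL3 stood at 162 CPM ± 15.8 (SW480) and 351 CPM ± 68.5 (SW620, SD, n = 3) and was higher in SW620 by 1.09 ± 0.24 on the log2 scale (SE, edgeR adjusted p = 0.00859). In PEO4 it stood at 275 CPM ± 60.2 without and 308 CPM ± 90.8 with TGF-β (SD, n = 3), and the difference was 0.18 ± 0.25 on the log2 scale (SE, edgeR adjusted p = 0.759). Against the SW lines PEO4 differed by 0.48 (edgeR adjusted p = 0.0671), with RN7SL3 higher than in SW480 alone (log2 fold change 1.011, edgeR adjusted p = 0.00428) and a difference of -0.05 from SW620 alone (edgeR adjusted p = 0.868). RN7SL3 is near-identical to RN7SL2 in sequence, as given above, so these rows are not independent measurements.

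The ratio of RN7SL2 to RN7SL3 counts within a library needs no scaling between libraries. It was 38.3, 39.9 and 33.4 in SW480 (37.2 ± 3.38, SD, n = 3) and 41.1, 27.5 and 26.3 in SW620 (31.6 ± 8.22, SD, n = 3). SW620 replicate 1 was the highest of these 6 and the other SW620 libraries the lowest. The ratio was 46.7 ± 5.21 in PEO4 control cells and 41.1 ± 5.90 with TGF-β (SD, n = 3). A two-sided exact permutation test gave p = 0.4 between the SW lines and p = 0.3 between the PEO4 groups (0.4 for both after Benjamini-Hochberg adjustment over 2 comparisons), and 3 against 3 libraries cannot give less than 0.1. The planned ratios of RN7SL1 to RN7SL2, RN7SK to 7SL and RMRP to RPPH1 could not be formed, because a row of each was at 0. The ratio of RN7SL2 to RN7SL3 was added after that was seen. It also depends on how reads that map to several places were counted, which is not given.

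The 294 rows of the RN7SK family held 5853 counts, all in copies, and 140 of them had a count. Summed, they ran from 17.9 to 61.8 CPM in SW620 and from 14.4 to 19.9 CPM in TGF-β-treated PEO4 cells. SW620 replicate 2 was the highest library and SW620 replicate 3 the lowest of the SW libraries. Among all tested copies of both families, 3 of 55 were higher and 0 lower in SW620, 0 of 32 were called with TGF-β (0 at an unadjusted p under 0.05 in edgeR, 0 by limma-voom and 0 by DESeq2, which gave 19 of them no adjusted p), and 4 of 70 were higher and 8 lower in PEO4 than in the SW lines (2 to 19 and 5 to 30 over 18 alternatives). The alternatives tested different numbers of genes, 22936 in the main fit and 42279 with no filter on low counts. Those ranges are therefore not all out of 70 copies. The shares of all genes called higher and lower were 13.5% and 17% for the SW lines and 28.9% and 29.1% for PEO4 against them.

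Protein partners of the RNAs were taken by list, and beside each count the shares of all genes just given apply. Of 8 signal recognition particle proteins and receptor subunits, 1 was higher in SW620: SRP72, a large subunit that binds the RNA, at 0.69 ± 0.22 on the log2 scale (SE, edgeR adjusted p = 0.0393). That call was lost without 5 of the 6 libraries in turn (adjusted p up to 0.133). The list's median was 0.16, beside 0.03 for all genes. In PEO4 against the SW lines 4 were higher, among them SRP68 (1.27 ± 0.21, SE) and SRP14 (0.82 ± 0.18, SE). Lower were SRP9 (-0.68 ± 0.15, SE), the partner of SRP14 on the Alu domain of the RNA, and SRPRB (-0.88 ± 0.24, SE), a receptor subunit. The 2 proteins of the SRP9/SRP14 pair thus stood on opposite sides (edgeR adjusted p = 0.00221 and 0.00159).

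Of 7 proteins of the 7SK particle and P-TEFb, MEPCE, which caps 7SK, was lower in SW620 at -0.80 ± 0.23 (SE, edgeR adjusted p = 0.0285). CCNT1, a cyclin T, was higher at 0.56 ± 0.18 (SE, edgeR adjusted p = 0.0445). The MEPCE call was lost in 4 leave-one-out fits, and the CCNT1 call in 5 of them, with RLE factors and with no filter. With TGF-β, CCNT2, the other cyclin T, was lower at -0.39 ± 0.079 (SE, edgeR adjusted p = 0.0418), from 75.2 CPM ± 4.99 to 56.8 CPM ± 2.81 (SD, n = 3). It was the 1 protein partner on these lists called under TGF-β, where 1.27% of all genes were higher and 0.991% lower, and its call was lost in 5 leave-one-out fits and in the fit of all 12 libraries. Between PEO4 and the SW lines, HEXIM1, CDK9 and CCNT2 were higher, each by 0.60 to 0.62 on the log2 scale (edgeR adjusted p = 0.00188, 0.00332 and 0.00190). The CCNT2 call was lost with library totals as the only scaling (0.30).

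Of 11 proteins of RNase P and RNase MRP, RPP25 (1.44 ± 0.26, SE) and POP1 (0.71 ± 0.19, SE) were higher in SW620 (edgeR adjusted p = 0.00253 and 0.0192). POP1, the largest subunit, lost its call in 4 leave-one-out fits. Compared with the SW lines, PEO4 had higher POP1 (1.17), RPP25 (1.14) and RPP38 (0.81) and lower RPP14 (-0.68) on the log2 scale (edgeR adjusted p = 5.51e-05, 0.000224, 0.000506 and 0.00248). RPP25 averaged 26.0 CPM in SW480, 71.3 CPM in SW620 and 79.0 CPM in PEO4 control cells.

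Of 14 telomerase and telomere proteins, 6 were higher and 0 lower in SW620 (4 to 11 and 0 to 1 over 15 alternatives). The catalytic subunit TERT was at 1.15 CPM ± 0.476 (SW480) and 5.44 CPM ± 2.75 (SW620, SD, n = 3), so that it differed by 2.17 ± 0.42 on the log2 scale (SE, edgeR adjusted p = 0.00401). The shelterin proteins TERF2IP (1.83), TERF2 (1.13) and ACD (0.99) were higher too (edgeR adjusted p = 0.000295, 0.00226 and 0.00589), and the median of the list was 0.60. Of the same 14, 5 were higher and 6 lower in PEO4 than in the SW lines. WRAP53, which guides TERC to Cajal bodies, was lower there at -1.90 ± 0.13 (SE, edgeR adjusted p = 1.30e-07), and TERF2 and ACD differed by -1.81 and -1.38 (edgeR adjusted p = 1.43e-06 and 2.36e-05). TERT was higher in PEO4 than the mean of the SW lines at 1.28 ± 0.33 (SE, edgeR adjusted p = 0.00508). By library totals, the PEO4 control mean of TERT, 4.91 CPM ± 1.91 (SD, n = 3), lay above that of SW480 and below that of SW620. TERT in PEO4 against SW620 alone was not tested, and this order may differ with TMM factors. TERC was lower in PEO4 than in either line.

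Of the 11 RNA polymerase III subunits, 6 were higher and 0 lower in SW620, with a list median of 0.56 beside 0.03 for all genes. The largest subunit POLR3A was at 47.6 CPM ± 3.35 (SW480) and 107 CPM ± 2.47 (SW620, SD, n = 3), which is 1.13 ± 0.15 on the log2 scale (SE, edgeR adjusted p = 0.000607). POLR3G (1.06), POLR3B, the second largest subunit (0.93), and POLR3E (0.87) were higher as well (edgeR adjusted p = 0.00567, 0.00785 and 0.00249). Over 15 alternative fits 4 to 6 of the subunits were higher and 0 lower. In PEO4 against the SW lines 4 were higher and 2 lower, among them POLR3C at 0.99 and POLR3GL, the paralogue that takes the place of POLR3G, at -1.54 (edgeR adjusted p = 1.85e-05 and 0.000232). Over 18 alternatives the number higher ran from 1 to 4 and the number lower from 1 to 5.

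Of 20 transcription factors of polymerase III, 3 were higher in SW620, BDP1 (0.97), GTF3C6 (0.90) and SNAPC3 (0.60), and 1 was lower, GTF3A (-0.61), which acts on the 5S ribosomal RNA genes (edgeR adjusted p = 0.00269, 0.00479, 0.0238 and 0.0316). The SNAPC3 and GTF3A calls were lost with no filter and in 3 and 5 leave-one-out fits. In PEO4 against the SW lines 7 were higher and 5 lower. SNAPC2 (2.25 ± 0.20, SE) and SNAPC1 (15.9 CPM in PEO4 control cells, 6.78 CPM in the SW lines), subunits of the complex that binds the promoters of small nuclear RNA genes including RN7SK, were higher (edgeR adjusted p = 1.07e-06 and 4.09e-05). MAF1, the repressor of polymerase III, was higher at 2.20 ± 0.21 (SE, edgeR adjusted p = 2.37e-06), from 73.6 CPM over the SW libraries to 282 CPM. GTF3A was lower at -1.41 ± 0.15 (SE, edgeR adjusted p = 5.24e-06).

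**Figure D5:**
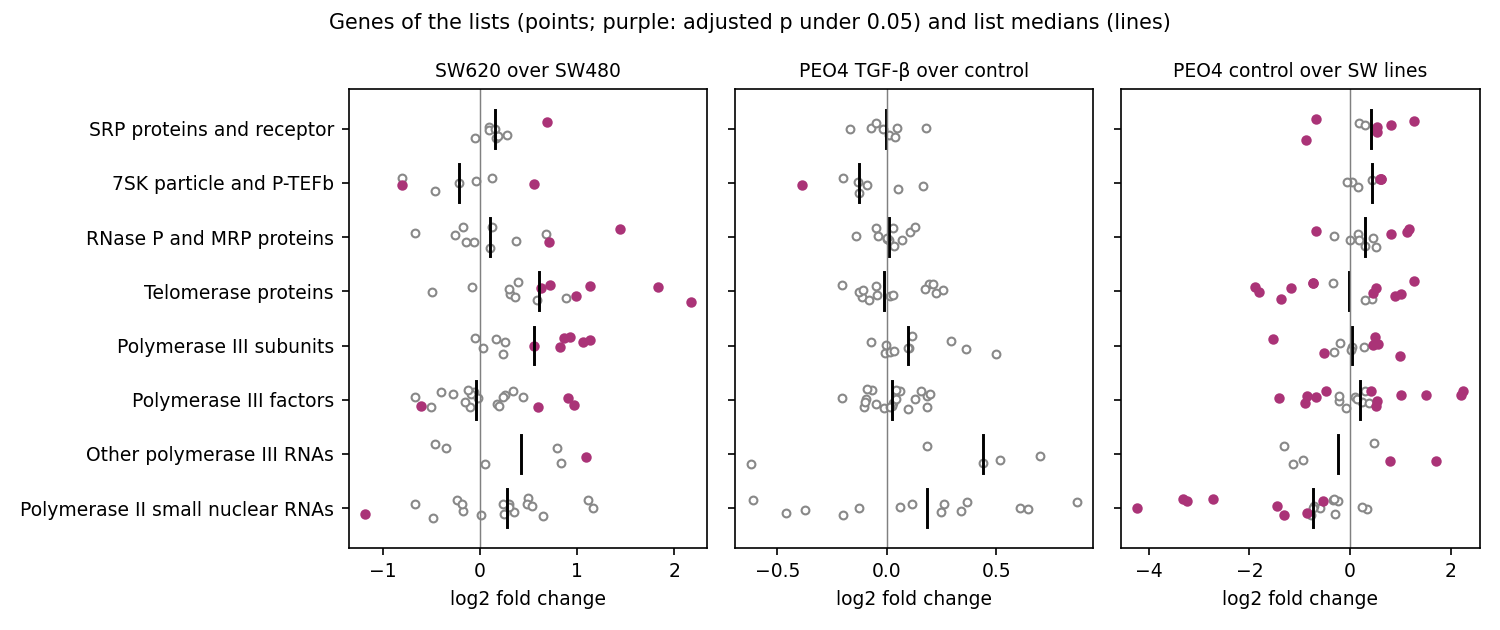
Log2 fold changes (x axes, which differ in range) of the genes of 8 lists (y axis) in the 3 comparisons; each point is a gene tested, purple where the edgeR adjusted p was under 0.05, and black lines are list medians. In the left panel 6 of 11 polymerase III subunits and 6 of 14 telomerase proteins are purple and to the right of 0, and in the middle panel 1 point is purple.

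Other small RNAs in the same libraries did not all move with RN7SL2. Of 6 further polymerase III RNAs tested between the SW lines, 1 was called, RN7SL3. In PEO4 against the SW lines RNY1, a Y RNA (1.71 ± 0.35, SE), and BCYRN1, a brain cytoplasmic RNA that resembles the 7SL Alu domain (0.79 ± 0.20, SE), were higher (edgeR adjusted p = 0.00120 and 0.00536). The BCYRN1 call was lost with library totals as the only scaling (0.50). RNY1 was at 8.94 CPM ± 2.04 in PEO4 control cells and 14.3 CPM ± 2.54 with TGF-β (SD, n = 3) and did not pass the test there (edgeR adjusted p = 0.128).

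Of 18 small nuclear and nucleolar RNAs made by RNA polymerase II, 8 were lower in PEO4 than in the SW lines, 0 were higher and 10 did not pass the test, with a median of -0.73. SNORD3A, a U3 RNA of ribosomal RNA processing, stood at 744 CPM ± 97.3 (SD, n = 6) in the SW lines and 92.1 CPM ± 2.94 (SD, n = 3) in PEO4 control cells, and differed by -2.73 ± 0.18 on the log2 scale (SE, edgeR adjusted p = 6.45e-08). SNORD3B-1, its near-identical copy, differed by -3.32 and the U5 RNAs RNU5F-1 and RNU5D-1 by -4.22 and -3.23 (edgeR adjusted p = 5.16e-05, 0.000229 and 0.000966). The U5 rows averaged 0.0524 and 0.136 CPM in PEO4, under the limit of 3 counts, so their fitted folds are no bounds. Between the SW lines 1 of 18 was called, SCARNA7, lower in SW620 at -1.18 ± 0.15 (SE, edgeR adjusted p = 0.000340). Among the named partners, SRPRB, HEXIM1, RPP14, RPP38, POLR3GL and SNAPC1 have more than 10% of their exonic bases inside other genes, so their counts are uncertain.

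Under TGF-β the partner lists held 1 call among 90 genes tested, that of CCNT2. The same edgeR fit gave 12 of the 90 an unadjusted p under 0.05, DESeq2 called 3 and limma-voom 1. Of these 3 DESeq2 calls, 1 was among the other polymerase III RNAs and 1 among the polymerase II small RNAs. Over all 19064 genes tested, edgeR gave 3175 an unadjusted p under 0.05, DESeq2 called 967 and limma-voom 433. The counts on the lists are thus no excess over all genes. The medians of the 8 lists ran from -0.13 (7SK particle) to 0.44 (other polymerase III RNAs) on the log2 scale, beside -0.02 for all genes.

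Between the SW lines the list medians not yet given were -0.22 for the 7SK particle, 0.11 for RNase P and MRP, -0.04 for the polymerase III factors, 0.42 for the other polymerase III RNAs and 0.27 for the polymerase II small RNAs. Between PEO4 and the SW lines, where the median of all genes was -0.08, they were 0.41 for the signal recognition particle, 0.43 for the 7SK particle and 0.29 for RNase P and MRP. There they were -0.02 for telomerase, 0.05 for the polymerase III subunits, 0.19 for the factors and -0.23 for the other polymerase III RNAs.

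Genes whose pattern over the 12 libraries came nearest to each member were found by the root mean square difference of log2 CPM. These values were scaled with TMM factors and an added prior count of 2, and each gene was centred on its own mean. For RN7SL2 these were ANXA11 (0.11) and MCU (0.12), beside a median of 0.68 over 10432 genes. For TERC they were IPO5 (0.13) and CBX6 (0.14), beside a median of 1.00. For RMRP, HEIH was at 0.25, beside a median of 0.74. The libraries of a line share their source, so these distances describe 12 libraries of 3 lines.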

How the data were processed

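Total RNA of 12 cell line libraries was sequenced after ribosomal RNA depletion. Per the submitters' processing notes, Trimmomatic 0.36, STAR 2.5.2b, featureCounts of Subread 1.5.2, DESeq2 and GRCh38 were used; settings, strand use, read length and annotation release are not given in the sources used here. The deposited table holds whole-number counts per Ensembl gene for 57500 rows. The authors' deposited tables also give a scaled signal (on testing, each value is the count over a single factor of its library), a log2 fold change and p-values with and without adjustment, and served only for side-by-side values.

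Counts were fitted per comparison with edgeR 4.0.16 in R 4.3.3 (filterByExpr, TMM factors, glmQLFit and glmQLFTest, two-sided, Benjamini-Hochberg over all tested genes, threshold 0.05), checked on simulated data. The third comparison used 9 libraries and the mean of the SW480 and SW620 coefficients. CPM and shares use library totals, except that the nearest genes were found with TMM-scaled CPM. The SE is the log2 fold change over the square root of F. Alternatives used other factors, DESeq2 1.42.0, limma 3.58.1 (voom), other filters and fits, a replicate block, and each library left out. GENCODE 29 holds 56898 of the Ensembl identifiers; the authors' annotation may be another. The labels call the replicates biological; where they share a culture, p-values measure only the spread between these samples.

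Named genes are all members, up to 4 called genes per list and comparison with the largest change, the 3 most counted copies and the 2 nearest genes per member with at least 10 CPM; others (RF00100, AL355075.4, and genes in the checks of labels) were named after their values were seen. The members and lists were chosen with earlier results of these data known. The lists are signal recognition particle, 7SK particle, RNase P and MRP, telomerase, polymerase III subunits and factors, other polymerase III RNAs, polymerase II small RNAs, copies, residual ribosomal RNA (0 rows matched), and 4 of cell type markers. Planned count ratios between members had a row at 0 and gave no test. A few items that these rules select are not reported here.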

Additional observations from a re-analysis of the deposited data

How the results depend on the processing

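In PEO4 against the SW lines, TERC was called in 21 of 21 alternatives, RN7SL2 in 20 (not against SW620 alone) and RMRP in 18, each with 1 direction. Between the SW lines 1 member was called, 0 with no filter on low counts and 0 to 1 with a library left out. With a replicate block 10667 genes were called between the SW lines against 6385, and 2102 in PEO4 against 431. Same-numbered samples correlated at 0.0159, 0.670 and 0.567 (SW lines) and 0.291, -0.140 and 0.481 (PEO4). Samples with different numbers correlated at -0.630 to 0.268 (SW lines) and -0.486 to 0.239 (PEO4). The labels do not say that the numbers pair samples, and they were not taken to do so. The block changed no member's call, but RN7SL2 between the SW lines was then at 0.80 ± 0.14 (SE, edgeR adjusted p = 0.000204). Leaving out a library gave 4253 to 7419 genes called between the SW lines and 72 to 1080 in PEO4. The PEO4 count was 1457 with no filter, 967 with DESeq2 and 165 with all 12 libraries in 1 model. In PEO4 the sign of small, uncalled differences turned. RN7SL2 was at 0.0097 with no filter, 0.014 with 12 libraries, 0.12 without control replicate 1 and 0.15 without TGF-β replicate 3. TERC was at -0.048 without TGF-β replicate 3, and RMRP at 0.18 without control replicate 1 and 0.018 without TGF-β replicate 1. With a library left out, these ran from -0.11 to 0.15 for RN7SL2, -0.048 to 0.29 for TERC and -0.42 to 0.18 for RMRP. The share of the 6 members moved to 0.679% (SW480), 1.19% (SW620) and 1.43% (PEO4 control) with mitochondrial genes left out of the total, and to 0.627% in SW480 with all RN7SL and RN7SK rows counted. The polymerase II small RNA list had 5 to 11 lower in PEO4 and the copies 1 to 16 higher in SW620, where the number of genes tested also differed between fits. The ratios planned between members at 0 were not run. The cause of these changes was not tested. RMRP rests on 2 to 21 counts a library, and the part of depth in that was not tested.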
